A study of Mus musculus with 13 samples.

Results

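The matrix metalloproteinases stromelysin-1 (Mmp3), neutrophil collagenase (Mmp8), gelatinase B (Mmp9), macrophage elastase (Mmp12), membrane type 1 metalloproteinase (Mmp14) and Mmp19, together with the 4 tissue inhibitors of metalloproteinases (Timp1, Timp2, Timp3 and Timp4), were followed in midbrain RNA. These 10 genes were taken by name from the 49315 genes counted in each of 13 libraries, and all 10 passed the filter on low counts. The filter asked for at least 10 counts in at least 3 libraries, and 19360 genes passed it.

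RNA-Seq had been performed on the midbrains of 13 male mice, 8 to 12 weeks old, on a C57BL/6J background, and each library came from its own animal. Every mouse carried floxed Ripk3 on both alleles (Ripk3fl/fl) and had received tamoxifen (60 mg/kg on 5 days) at least 1 week before the experiment. Aldh1l1Cre+ mice (Cre+) carried a tamoxifen-inducible recombinase driven from Aldh1l1, an astrocyte gene, and so were to lose the necroptosis kinase RIPK3 in astrocytes while other cells kept the floxed gene. Their Aldh1l1Cre- littermates (Cre-) had no recombinase. MPTP, a toxin that glial cells convert to a metabolite taken up by dopaminergic neurons, was injected at 20 mg/kg once a day on 5 days, with saline as the control, and tissue was taken 3 days later. The groups were Cre- Saline (n = 3), Cre- MPTP (n = 3), Cre+ Saline (n = 3) and Cre+ MPTP (n = 4).

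Metalloproteinases are zinc proteases, made as inactive proenzymes, that cut the extracellular matrix, the basement membrane around vessels, and secreted or surface proteins. TIMPs bind the active site of these enzymes, and the balance of the 2 families, together with activation of the proenzymes, sets how much matrix is cut. In the injured brain, metalloproteinases are known for opening the blood-brain barrier and reshaping perineuronal matrix, and Timp1 is a known transcript of reactive astrocytes. RNA levels say nothing of proenzyme activation or of enzyme activity, which were not measured.

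Libraries held 11489150 to 29397278 counts (median 24907639). The shallowest was Cre- MPTP replicate 1, with 21101 genes detected against 25432 to 27186 in the others. Cre+ MPTP replicate 4 held muscle transcripts (6334 summed CPM over 6 muscle genes, against 11.7 to 147 in the other libraries). CPM are counts scaled to library totals of 1e+06 after TMM scaling. In Cre- MPTP replicate 1, some scaled levels stood far from those of the other Cre- MPTP libraries. Jund read 1512 CPM against 102 and 98.3, Adam15 415 against 109 and 129, and Tnr 36.1 against 168 and 139. Mmp9, Mmp14, Timp4 and Junb were also highest there of any library. The cause was not tested. Ripk3 itself had 4 to 40 counts per library, with 0.252 ± 0.131 CPM in Cre- Saline, 0.302 ± 0.0843 in Cre+ Saline, 0.895 ± 0.370 in Cre- MPTP and 0.416 ± 0.203 in Cre+ MPTP (mean ± SD). No genotype difference in Ripk3 passed the edgeR quasi-likelihood test under saline (log2 fold change 0.25, SE 0.538, adjusted p = 1) or MPTP (-1.11, SE 0.451, adjusted p = 0.224), so the whole-tissue count is no check of an astrocyte deletion. The 6 dopaminergic marker genes of the midbrain summed to 259.8 to 322 CPM in Cre- Saline, 189 to 352 in Cre- MPTP, 263 to 300.3 in Cre+ Saline and 249.7 to 332 in Cre+ MPTP. These ranges overlapped, and edgeR called none of the 6 genes in any comparison. In bulk tissue, fewer cells of a type and less RNA per cell cannot be told apart.

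The genes lie on 7 chromosomes of GRCm38, and 3 of them are neighbours. Mmp12 (9:7344381-7369499), Mmp3 (9:7445822-7455975) and Mmp8 (9:7558456-7568485) are on the plus strand of chromosome 9, inside a cluster of 10 metalloproteinase genes between 7272514 and 7699585. Mmp9 (2:164940780-164955850), Mmp14 (14:54431612-54441265) and Mmp19 (10:128790953-128800824) stand alone and are on the plus strand too. Timp1 (X:20870166-20874735, plus) lies inside the span of the synapsin gene Syn1, Timp3 (10:86300372-86349506, plus) inside Syn3 and Timp4 (6:115241892-115252205, minus) inside Syn2, each on the strand opposite to its host. Timp2 is at 11:118301069-118355740 on the minus strand. Timp1 shared 0 exonic bases with Syn1, whereas 1733 bases of Timp3 exons (21.3%) overlapped exons of Syn3 and 789 bases of Mmp19 exons (23.1%) overlapped Tmem198b. The sources used here do not say whether counting used strand, so reads in those shared bases may be split or lost for Timp3 and Mmp19.

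The 250 bases upstream of the RefSeq start site (GRCm38.p6) are shown for Mmp3, Mmp12, Mmp8 and Timp1, because these genes had the largest MPTP responses and 3 of them are neighbours. Capitals mark a match to the AP-1 motif TGANTCA on either strand, the element that Fos and Jun dimers bind. Mmp12 has 2 start sites in the table, and the second is shown.
Mmp3, chr9:7445572-7445821, plus: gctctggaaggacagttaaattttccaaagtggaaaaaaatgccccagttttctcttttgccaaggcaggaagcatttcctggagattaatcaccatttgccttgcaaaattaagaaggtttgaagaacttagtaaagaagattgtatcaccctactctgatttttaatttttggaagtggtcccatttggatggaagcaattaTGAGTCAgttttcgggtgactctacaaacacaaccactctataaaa
Mmp12, chr9:7347124-7347373, plus: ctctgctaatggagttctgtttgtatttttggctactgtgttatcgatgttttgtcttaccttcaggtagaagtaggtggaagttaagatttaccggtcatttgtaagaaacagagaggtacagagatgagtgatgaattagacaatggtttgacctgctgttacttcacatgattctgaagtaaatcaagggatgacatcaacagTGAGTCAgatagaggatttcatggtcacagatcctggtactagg
Mmp8, chr9:7558179-7558428, plus: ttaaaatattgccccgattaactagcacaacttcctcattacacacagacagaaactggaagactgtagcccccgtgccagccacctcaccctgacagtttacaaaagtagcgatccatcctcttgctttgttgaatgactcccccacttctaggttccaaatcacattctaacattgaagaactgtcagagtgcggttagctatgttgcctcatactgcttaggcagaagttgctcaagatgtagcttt
Timp1, chrX:20869916-20870165, plus: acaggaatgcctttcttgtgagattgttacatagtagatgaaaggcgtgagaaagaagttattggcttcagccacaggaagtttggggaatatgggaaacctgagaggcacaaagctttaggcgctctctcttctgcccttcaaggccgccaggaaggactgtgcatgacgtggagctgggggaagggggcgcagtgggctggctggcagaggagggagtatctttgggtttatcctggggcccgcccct
The AP-1 letters begin 46 bases before the start of Mmp3 and 44 bases before the second start of Mmp12. They are in no window of Mmp8, Timp1, the first start of Mmp12, Mmp14, Timp2, Timp3 or Timp4. Of 32851 mouse promoters of the same length, 6.75% hold such a match. A C/EBP motif (TTGCNNAA, either strand) was found in the windows of Mmp3, Mmp8 and the first start of Mmp12, against 9.56% of all promoters. The Ets core AGGAAG was found in Mmp3, Mmp8, Mmp12, Mmp14, Timp1, Timp3 and Timp4, against 29.5% of all promoters, and Timp1 held it at 2 places. The STAT motif TTCNNNGAA had no match in any of the 9 windows and is in 7.02% of promoters. A match is a run of letters and not a measured binding site. The table had entries for 8 of the 10 genes, and none for Mmp9 and Mmp19.

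Under saline, the inhibitors made up most of the summed level of the 10 genes. Per kilobase of exon, the Cre- Saline level was highest for Timp2 (104 ± 6.35 CPM per kilobase, mean ± SD, n = 3), followed by Timp3 (11.9 ± 2.94), Timp4 (11.6 ± 0.902) and Mmp14 (8.42 ± 1.20). Timp3 and Timp4 were closer to each other than their spread. Mmp9 (0.953 ± 0.0416), Timp1 (0.950 ± 0.502) and Mmp19 (0.489 ± 0.0837) formed a lower tier, in which Mmp9 and Timp1 also did not differ beyond their spread. Mmp3 (0.0420 ± 0.0364) and Mmp8 (0.0154 ± 0.0151) were near the detection limit, and Mmp12 had 0 counts in all 3 libraries, where a count of 0 allows up to 3 counts. In Cre+ Saline mice the same tiers were seen, with Timp2 at 102 ± 5.64, Timp3 at 14.0 ± 0.659, Timp4 at 11.4 ± 0.864 and Mmp14 at 8.62 ± 0.928 CPM per kilobase.

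**Figure D1:**
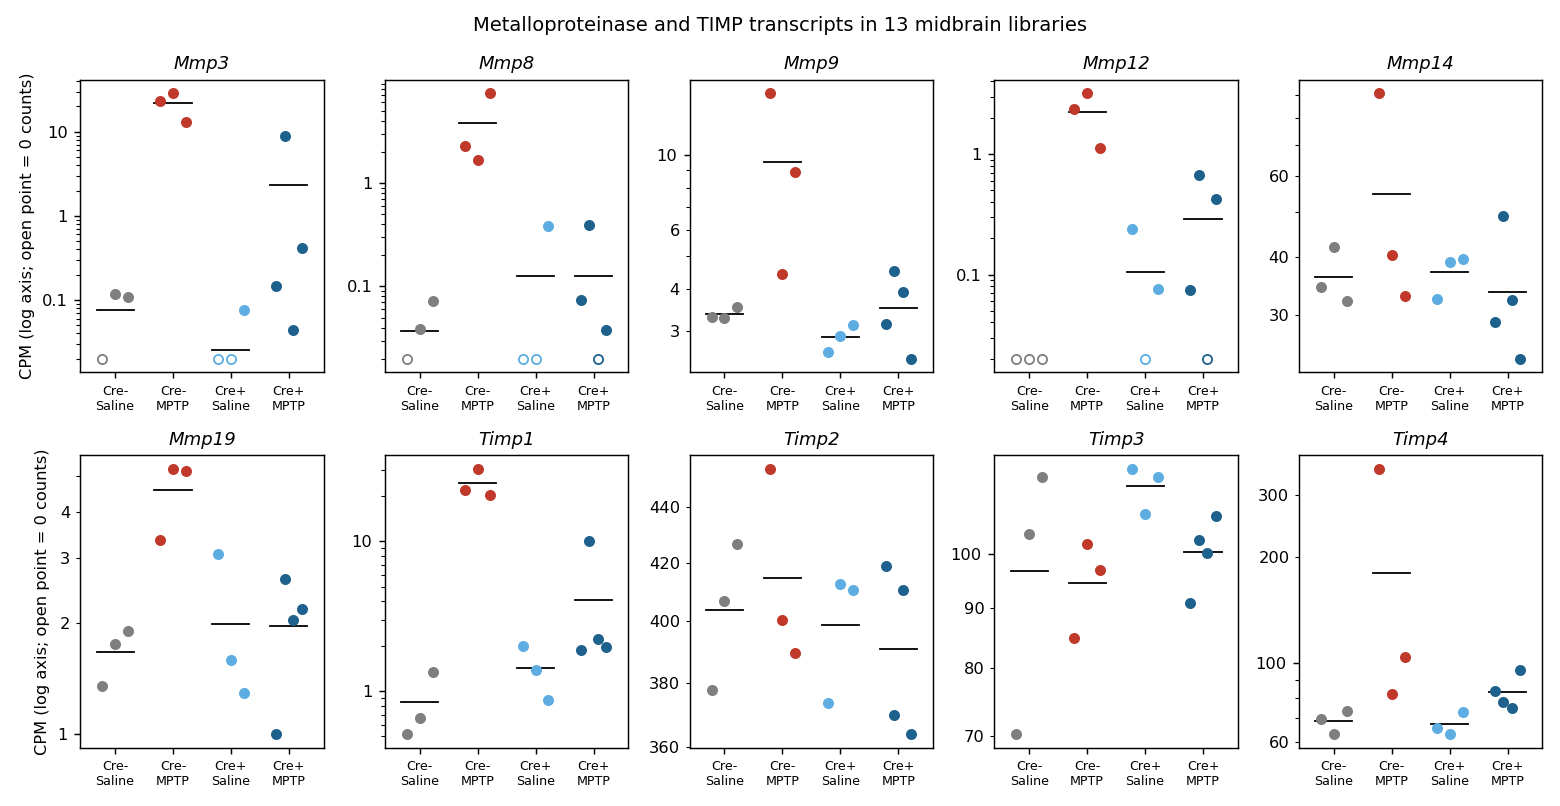
CPM of the 10 genes in each of the 13 libraries on log axes, 1 panel per gene with its own range, points for animals, bars for group means and open points for libraries with 0 counts. Mmp3, Mmp8, Mmp12 and Timp1 are higher with MPTP in every Cre- animal than in any Cre- Saline animal, and within Cre+ MPTP replicate 2 stands apart for Mmp3 and Timp1, at 8.78 and 10.1 CPM.

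The first question was how MPTP changed the family in mice without the recombinase. In Cre- mice, 5 of the 10 genes rose (Mmp3, Mmp8, Mmp9, Mmp12 and Timp1) and none fell at an adjusted p under 0.05, whereas 2.23% of all 19360 genes tested rose and 0.956% fell. DESeq2 and limma with sample quality weights each called 7 of the 10 higher, adding Mmp19 and Timp4, while they called 3.91% and 7.09% of all genes higher. The median log2 fold change of the 10 genes was 1.47, against 0.03 for all genes tested. In 7 of the 10 genes (the same 5 with Mmp19 and Timp4), all Cre- MPTP libraries lay above all Cre- Saline libraries, a pattern seen in 7.11% of all genes. Mmp3, Mmp8 and Mmp12 passed the filter on low counts only through the Cre- MPTP libraries, the group where they are high. The members were also chosen with earlier results of these data known. The shares of all genes set beside the 10, here and below, are therefore descriptive and no test of the set.

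Mmp3, which cuts proteoglycans and laminin and activates other proenzymes including that of Mmp9, reached 23.2, 28.8 and 12.9 CPM in Cre- MPTP mice. Its Cre- Saline values were 0, 0.117 and 0.110 CPM, so the groups were far apart and did not overlap. The fitted log2 fold change was 8.05 (SE 1.73, edgeR adjusted p = 0.0231). Since only 6 counts in all stood against 1334, the ratio of summed counts scaled by library size was 268, with an exact 95% interval of 123 to 733 that covers counting error only.

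Mmp12, an elastase known from macrophages, had 2.38, 3.21 and 1.12 CPM after MPTP in Cre- mice. Against 0 counts in every Cre- Saline library this was at least 19.4-fold higher, taking 3 counts per library as the floor (edgeR adjusted p = 0.0184). Mmp8, a collagenase stored in neutrophil granules, had 2.28, 1.66 and 7.39 CPM in Cre- MPTP mice and 0, 0.0391 and 0.0730 CPM in Cre- Saline mice. The third MPTP library carried most of its counts (224 of 287), but the other 2 were also above every saline library. The fit gave 6.47 on the log2 scale (SE 1.32, adjusted p = 0.0170), and 287 counts against 3 gave a ratio of 116 with an exact 95% interval of 39.1 to 563.

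Mmp9, which cuts basement membrane collagen, already had 83 to 97 counts per library under saline. It read 15.3, 4.44 and 8.91 CPM in Cre- MPTP mice and 3.29, 3.28 and 3.54 CPM in Cre- Saline mice. All MPTP libraries were higher, by very unequal amounts, and the rise was close to the threshold (log2 fold change 1.48, SE 0.367, adjusted p = 0.0493). Mmp19, a secreted enzyme that acts on basement membrane components, read 3.36, 5.23 and 5.15 CPM after MPTP and 1.35, 1.76 and 1.90 CPM after saline in Cre- mice. These groups did not overlap, but the difference missed the threshold (1.47, SE 0.392, adjusted p = 0.0726). It passed once Cre- MPTP replicate 1 was left out (1.64, adjusted p = 0.0162).

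Mmp14, the membrane-anchored enzyme that activates the Mmp2 proenzyme at the cell surface, had 90.7, 40.5 and 33.0 CPM in Cre- MPTP mice and 34.4, 42.0 and 32.2 CPM in Cre- Saline mice. Only the first MPTP library lay outside the saline range. The log2 fold change was 0.59 (SE 0.344, adjusted p = 0.421), which turned to -0.14 under limma with sample quality weights.

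Among the inhibitors, Timp1, a secreted TIMP that also binds the Mmp9 proenzyme, rose from 0.516, 0.664 and 1.35 CPM in Cre- Saline mice to 22.1, 30.6 and 20.6 CPM in Cre- MPTP mice. The 3 MPTP values were close together and far above saline (log2 fold change 4.84, SE 0.707, adjusted p = 0.00257). Of the 5 rises, that of Timp1 was the one that held whichever of the 6 libraries was left out, with adjusted p up to 0.0233.

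Timp4 had 357, 81.8 and 104 CPM in Cre- MPTP mice and 69.7, 62.9 and 73.4 CPM in Cre- Saline mice. Every MPTP value was higher, but replicate 1 was more than 3 times either of the others. The log2 fold change of 1.39 (SE 0.415) missed the threshold at an adjusted p of 0.116, and without replicate 1 it was 0.44 with an adjusted p of 0.0443. Timp2, the most abundant inhibitor per kilobase, and Timp3 differed by 0.04 (SE 0.120, adjusted p = 0.897) and -0.03 (SE 0.169, adjusted p = 0.940) on the log2 scale. The Timp2 values were 454, 401 and 389 CPM with MPTP against 378, 407 and 427 CPM with saline, and overlapped throughout.

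**Figure D2:**
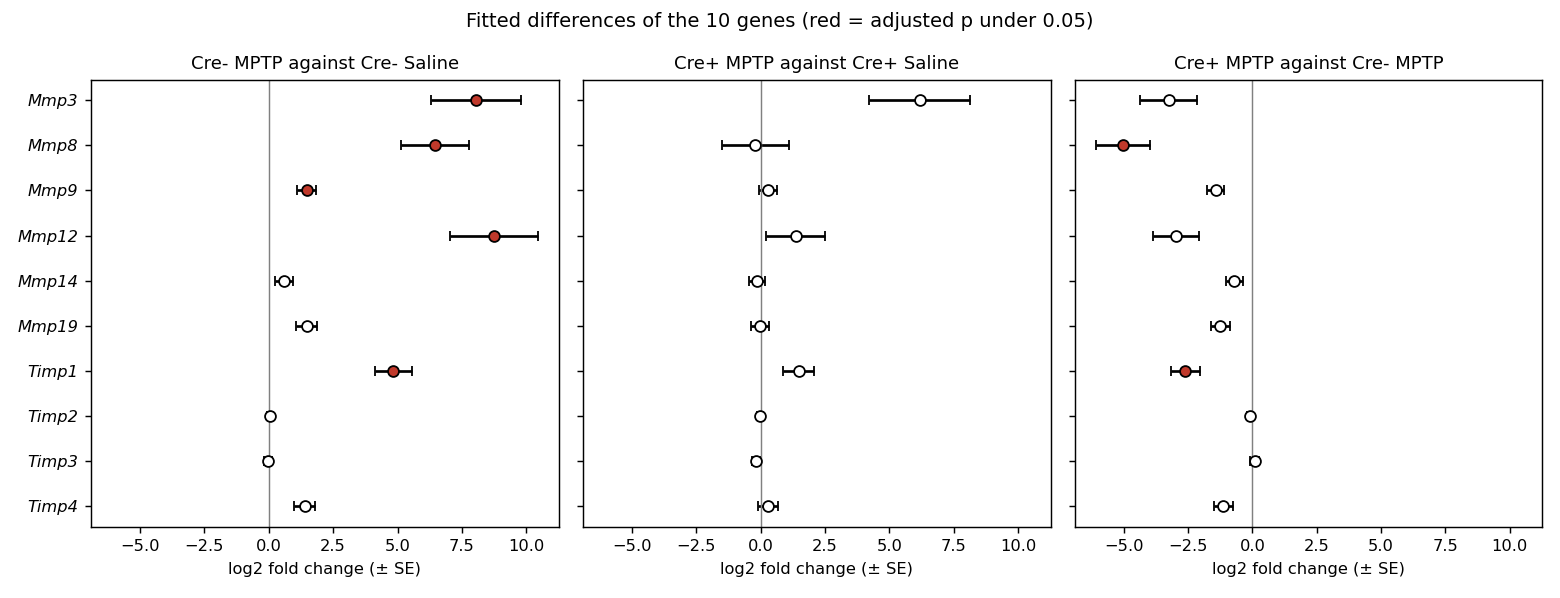
Fitted log2 fold changes with standard errors for the 10 genes in 3 comparisons, filled in red where the edgeR adjusted p was under 0.05. Called differences are the rises of Mmp3, Mmp8, Mmp9, Mmp12 and Timp1 in Cre- mice and the lower Mmp8 and Timp1 of Cre+ MPTP mice against Cre- MPTP mice, and the middle panel has none. The Mmp12 value on the left depends on the prior count, since its saline libraries had 0 counts.

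The calls of Mmp3, Mmp8, Mmp9 and Mmp12 rested on all 3 saline libraries. Without any 1 of Cre- Saline replicates 1, 2 or 3, these 4 calls were lost and 1 of the 10 genes (Timp1) was called. The share of all genes called higher also went down from 2.23%, to 1.16%, 1.11% and 1.41%. The fold changes stayed large, at 7.51 to 8.43 for Mmp3 with adjusted p up to 0.120. Without Cre- MPTP replicate 3, Mmp8 (5.48, adjusted p = 0.0501) and Mmp9 (1.52, adjusted p = 0.0773) were lost and 3 genes were called.

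The sum of neutrophil markers moved with Mmp8. The summed CPM of 11 neutrophil genes was 13.8 to 69.3 in Cre- MPTP, 3.98 to 5.26 in Cre- Saline, 3.74 to 8.72 in Cre+ Saline and 6.21 to 8.84 in Cre+ MPTP. Of the 11, 5 passed the filter on low counts, and edgeR called 3 higher in Cre- MPTP against Cre- Saline, as it did 2.23% of all genes. Cre- MPTP replicate 3 was highest in both Mmp8 (7.39 CPM) and the marker sum (69.3), and in that library none of the 11 genes was at 0. In Cre- MPTP replicate 1, 3 of the 11 were at 0, and in replicate 2, 1 was. Libraries of the other groups had 1 to 7 at 0. Over the 13 libraries, S100a8 and S100a9, which encode the calprotectin of neutrophil cytosol, had the patterns nearest to Mmp8. Their mean absolute differences from it in centred log2 CPM were 0.37 and 0.48. The third nearest was Serpina3m (0.59), which is not among the 11 neutrophil genes. S100a8 averaged 8.66 ± 8.65 CPM in Cre- MPTP and 0.138 ± 0.0910 CPM in Cre- Saline. The part of neutrophil RNA in the Mmp8 and Mmp9 differences was not tested.

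**Figure D3:**
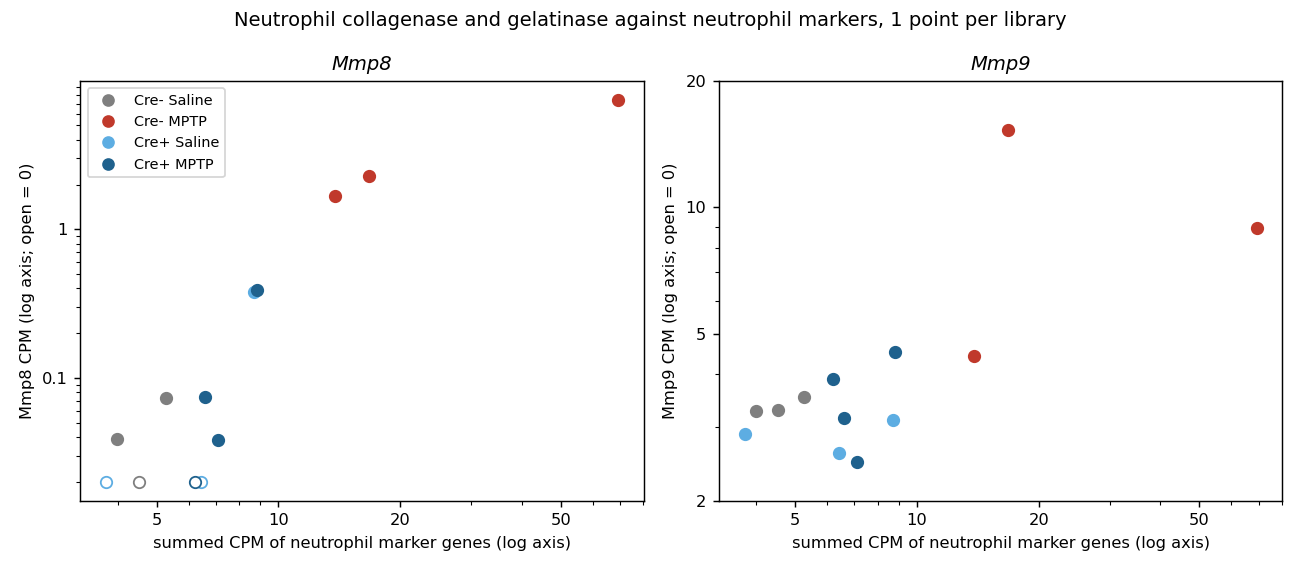
CPM of Mmp8 (left) and Mmp9 (right) against the summed CPM of 11 neutrophil marker genes, log axes, 1 point per library coloured by group, with open points for 0 counts. The 3 Cre- MPTP libraries lie at the upper right for Mmp8, with marker sums of 13.8, 16.8 and 69.3, whereas Mmp9 is highest (15.3 CPM) in the library with a marker sum of 16.8.

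Marker sums of other cell types moved with the group as well. The 7 astrocyte genes summed to 3896 to 4515 CPM in Cre- MPTP and 2203 to 2745 CPM in Cre- Saline, but their median log2 fold change was 0.16, and 2 of them were called higher, the reactive gene Gfap (2.60, adjusted p = 0.00202) and Aldh1l1 (0.65, adjusted p = 0.0403). The 7 microglia genes summed to 170.3 to 231 CPM against 242 to 272, with 2 called lower, the surface receptors P2ry12 (-2.79, adjusted p = 0.000104) and Siglech (-2.74, adjusted p = 0.00253). The 7 pericyte and smooth muscle genes summed to 74.5 to 169 CPM against 186 to 215, and none was called. The 6 oligodendrocyte genes summed to 9004 to 11595 CPM against 12080 to 16512, with 1 called lower. Their sums were also lower with MPTP in Cre+ mice (10661 to 13980 against 14553 to 16307 CPM). Sums of the 7 meningeal fibroblast genes overlapped in Cre- mice (1538 to 1669 against 1410 to 1698 CPM), with 1 called higher and 1 called lower. The sums of the 7 border macrophage and monocyte genes overlapped (6.94 to 15.3 against 11.7 to 12.3 CPM), with 1 of them called higher and 1 called lower. The part of these cell types in the metalloproteinase and TIMP values was not tested.

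The make-up of the 10 genes was not the same in the 2 groups, as described here by sums that were not tested. Summed over the 6 metalloproteinases, Cre- Saline libraries had 9.92 ± 1.20 CPM per kilobase and Cre- MPTP libraries 30.7 ± 9.30. Mmp14 made up 84.7% ± 2.45 of this sum under saline and 39.6% ± 10.8 with MPTP, where Mmp3 made up another 39.6% ± 12.95 against 0.414% ± 0.361 under saline. The 4 TIMPs summed to 128 ± 9.93 CPM per kilobase under saline and 176 ± 31.8 with MPTP, of which Timp1 was 0.726% ± 0.331 and 16.0% ± 4.71. Cre- MPTP replicate 1 raised both means. Its metalloproteinase sum was 40.55 against 29.3 and 22.1 in replicates 2 and 3, and its TIMP sum 212 against 164 and 153. All of these lay above the saline ranges of 9.13 to 11.3 and 118 to 138. The ratio of the metalloproteinase sum to the TIMP sum was 0.0777 ± 0.0108 in Cre- Saline and 0.172 ± 0.0240 in Cre- MPTP mice. In every library the TIMP sum was the larger. These shares and ratios cover the 6 chosen metalloproteinases only. Outside the 10 genes, Mmp15 had 7.58 to 12.5 CPM per kilobase in Cre- Saline and 5.55 to 13.5 in Cre- MPTP. Mmp17 had 7.30 to 10.9 and 5.80 to 10.1, and Mmp24 had 8.60 to 8.94 and 7.94 to 8.26. Under saline these levels were near that of Mmp14 (8.42 ± 1.20). A ratio over all metalloproteinases was not computed.

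**Figure D4:**
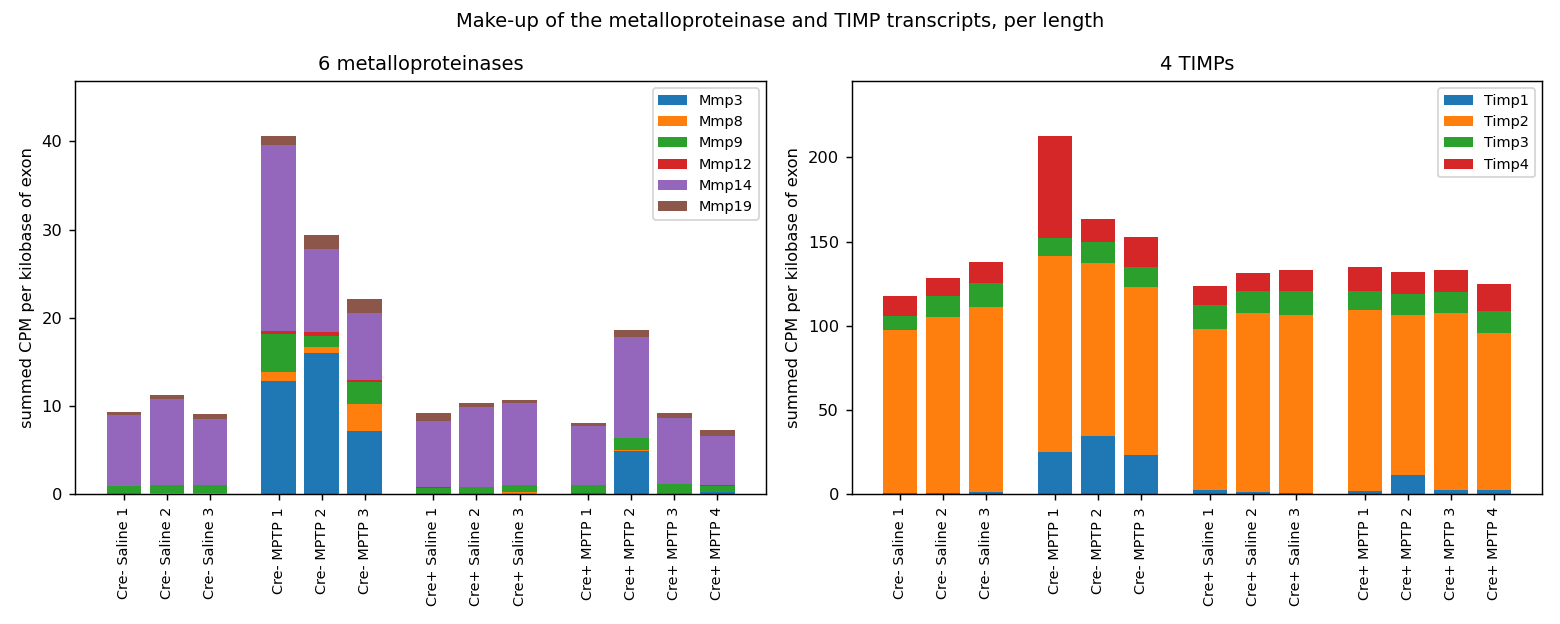
Stacked bars of CPM per kilobase of exon for the 6 metalloproteinases (left) and the 4 TIMPs (right), 1 bar per library. Blue, the lowest segment, marks Mmp3 and Timp1, which are thick in the 3 Cre- MPTP libraries, thinner in Cre+ MPTP replicate 2 (26.2% and 8.59% of their sums) and barely visible elsewhere.

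The same contrast was then made in mice with the astrocyte recombinase. In Cre+ mice, MPTP changed 0 of the 10 genes, and 0% of all genes tested, by edgeR. At an unadjusted p under 0.05 there were 2 of the 10 (Mmp3 and Timp1) and 3.47% of all genes, and DESeq2 and limma likewise called 0 of the 10, while they called 0.429% and 1.52% of all genes. Mmp3 read 0.148, 8.78, 0.0444 and 0.420 CPM in the 4 Cre+ MPTP mice and 0, 0 and 0.0761 CPM in the Cre+ Saline mice. Only replicate 2 reached a level near that of Cre- MPTP mice. The fitted log2 difference was 6.18 (SE 1.95, adjusted p = 0.932), and 2.77 without replicate 2. Timp1 read 1.88, 10.1, 2.22 and 1.98 CPM in Cre+ MPTP mice and 2.01, 1.38 and 0.876 CPM in Cre+ Saline mice, a log2 difference of 1.48 (SE 0.607, adjusted p = 1.00) that came to 0.51 without replicate 2.

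Mmp8 read 0.0739, 0.392, 0 and 0.0382 CPM in Cre+ MPTP mice and 0, 0 and 0.381 CPM in Cre+ Saline mice, 10 counts in each group. These overlapped. Mmp12 had 25 counts over 4 MPTP libraries and 8 over 3 saline libraries, a scaled ratio of 2.54 with an exact 95% interval of 1.11 to 6.52 for counting error only. Mmp9 (3.51 ± 0.894 against 2.87 ± 0.261 CPM), Mmp19 (1.96 ± 0.690 against 1.99 ± 0.955) and Mmp14 (33.6 ± 10.9 against 37.0 ± 3.99) overlapped between MPTP and saline. In Timp4, all 4 Cre+ MPTP values (74.7 to 95.9 CPM) lay above the 3 saline values (63.0 to 72.8 CPM), and in Timp3 all lay below (90.9 to 108 against 108 to 118 CPM, separate before rounding). Neither passed the test (log2 differences 0.30, SE 0.384, and -0.19, SE 0.157), and groups were separate in 1 direction or the other in 9.66% of all genes.

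MPTP-treated mice of the 2 genotypes were next compared directly, which asks whether astrocyte RIPK3 changed the levels reached after the toxin. In Cre+ MPTP mice, 2 of the 10 genes, Mmp8 and Timp1, were lower than in Cre- MPTP mice and none was higher, against 1.03% and 0.517% of all genes tested. The Cre- MPTP libraries are those of the first comparison, so the 2 sets of differences share samples. Mmp8 passed the filter on low counts only through those libraries. For Mmp8 the log2 difference was -5.03 (SE 1.05, adjusted p = 0.0368 in edgeR), with 10 counts against 287 and a scaled ratio of 0.0241 (exact 95% interval 0.0114 to 0.0449, counting error only). For Timp1 it was -2.61 (SE 0.565, adjusted p = 0.0406). Replicate 2, at 10.1 CPM, was nearest to the Cre- range of 20.6 to 30.6 CPM, and the other 3 Cre+ mice were at or below 2.22 CPM.

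Cell type markers moved with this comparison too. The neutrophil sum was 6.21 to 8.84 CPM in Cre+ MPTP and 13.8 to 69.3 in Cre- MPTP mice, and 3 of the 5 neutrophil genes tested were called lower. The astrocyte sum was lower in every Cre+ MPTP library (2706 to 3158 against 3896 to 4515 CPM), with 1 of 7 genes called, Gfap (-2.20, adjusted p = 0.00827). The median log2 difference of the 7 astrocyte genes was 0.13, in the other direction from their sum. The microglia sum was higher in every Cre+ MPTP library (240.1 to 314 against 170.3 to 231 CPM), with 2 of 7 genes called higher, P2ry12 (2.12, adjusted p = 0.00142) and Siglech (2.75, adjusted p = 0.00725). The border macrophage and monocyte sums overlapped (11.5 to 22.9 in Cre+ MPTP against 6.94 to 15.3 CPM in Cre- MPTP), with 1 of 7 genes called higher. The part of these cell types in the Mmp8 and Timp1 differences was not tested.

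In 5 of the 10 genes (Mmp3, Mmp8, Mmp12, Mmp19 and Timp1) every Cre+ MPTP library lay below every Cre- MPTP library, a pattern seen in 5.07% of all genes. Of these, Mmp3 (-3.25, SE 1.12, adjusted p = 0.192), Mmp12 (-2.97, SE 0.899, adjusted p = 0.165) and Mmp19 (-1.24, SE 0.358, adjusted p = 0.138) did not pass the test. Mmp3 passed without Cre+ MPTP replicate 2 (-6.65, adjusted p = 0.000855), where 1.15% of all genes were lower. Mmp9 (-1.43, SE 0.337, adjusted p = 0.0597) and Timp4 (-1.12, SE 0.379, adjusted p = 0.189) also missed the threshold and overlapped between genotypes. Mmp14 (-0.70, SE 0.319), Timp2 (-0.09, SE 0.112) and Timp3 (0.09, SE 0.158) overlapped as well.

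The calls in this comparison were fragile. Without Cre+ MPTP replicate 1, 3 or 4, neither Mmp8 nor Timp1 was called (adjusted p of Timp1 0.131, 0.138 and 0.109), and without Cre- MPTP replicate 3 the call of Mmp8 was lost (-4.04, adjusted p = 0.0553). The share of all genes called lower was then 0.125%, 0.109%, 0.349% and 2.33%. Without Cre- MPTP replicate 2, 4 of the 10 genes were called, but the share of all genes called lower also went up, to 8.23%. DESeq2 called 4 of the 10 genes lower (2.92% of all genes) and limma with sample quality weights 6 (3.8%). With edgeR fitted to these 2 groups alone, 0 of all 18480 genes tested were called, the 10 among them, and 6 of the 10 had an unadjusted p under 0.05, as did 1553 of all genes.

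Whether the MPTP response itself differed by genotype was tested as an interaction, the log2 response of Cre+ mice minus that of Cre- mice. None of the 10 genes passed in edgeR, where 0.0103% of all genes did, and 5 of the 10 had an unadjusted p under 0.05, against 5.76% of all genes. Timp1 had an interaction of -3.36 (SE 0.875, adjusted p = 0.270), Mmp8 of -6.67 (SE 1.95, adjusted p = 0.389) and Mmp12 of -7.38 (SE 2.37, adjusted p = 0.541). DESeq2 called 2 of the 10 (Timp1 and Mmp12) and limma 3 (Timp1, Mmp12 and Mmp19), all with a smaller response in Cre+ mice, where these tools called 0.723% and 2.06% of all genes in that direction. Timp1 passed in edgeR when Cre+ MPTP replicate 2 was left out (-4.33, adjusted p = 0.00637), as 0.27% of all genes then did in that direction. The interaction of Mmp3 was -1.87 with an SE of 4.34, since both saline groups were near 0 counts, and turned to 0.72 without Cre+ Saline replicate 3.

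Under saline the genotypes did not separate by the test. None of the 10 genes was called in Cre+ Saline against Cre- Saline mice by edgeR, DESeq2 or limma, 0% of all genes were called by edgeR, 0.0103% by DESeq2 and 0.0155% by limma, and 0 of the 10 had an unadjusted p under 0.05 in edgeR (0.909% of all genes). The log2 differences of the abundant members were 0.03 (SE 0.342) for Mmp14, -0.02 (SE 0.120) for Timp2, 0.24 (SE 0.169) for Timp3 and -0.03 (SE 0.408) for Timp4. Mmp9 was slightly lower in every Cre+ Saline library (2.60, 2.89 and 3.12 CPM) than in any Cre- Saline library, a separation seen in 5.71% of all genes.

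In the make-up of the 10 genes, Cre+ MPTP mice stood close to the saline groups. Their metalloproteinase sum was 10.8 ± 5.29 CPM per kilobase against 10.1 ± 0.773 in Cre+ Saline, and their TIMP sum 131 ± 4.27 against 129 ± 4.91. The ratio of the 2 sums was 0.0820 ± 0.0397 and 0.0779 ± 0.00307. Replicate 2 was again apart, with a ratio of 0.141 against 0.0579 to 0.0695 in the other 3 Cre+ MPTP mice and 0.145 to 0.191 in Cre- MPTP mice.

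The chromosome 9 neighbours of Mmp3, Mmp8 and Mmp12 were also read. Of the 7 other metalloproteinase genes in the cluster, 5 (Mmp1a, Mmp1b, Mmp7, Mmp10 and Mmp20) had at most 1 count in any library. Mmp27 had 7 counts, all in Cre- MPTP mice. Mmp13 (collagenase-3), at the edge of the cluster, had 1.84, 3.49 and 0.330 CPM in Cre- MPTP mice and 0, 0.117 and 0.0730 CPM in Cre- Saline mice. The groups were separate, and its log2 fold change of 4.77 (SE 1.19) narrowly missed the threshold (adjusted p = 0.0517). Mmp12 and Mmp1b share 157 exonic bases on opposite strands, and Mmp1b had 0 counts throughout.

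Of the 17 metalloproteinase genes outside the 10, 10 passed the filter on low counts, and edgeR called 0 of them in Cre- mice. At an unadjusted p under 0.05 there were 2 of them, against 2897 of all 19360 genes. DESeq2 called Mmp13 higher and Mmp2 lower, and limma called 3 lower (Mmp2, Mmp15 and Mmp28), while DESeq2 called 1.96% and limma 6.46% of all genes lower. The constitutive gelatinase Mmp2 was lower in every Cre- MPTP library (1.73, 3.21 and 2.01 CPM) than in any Cre- Saline library (4.29, 5.78 and 6.35 CPM), with a log2 difference of -1.22 (SE 0.320, adjusted p = 0.0671). Its level in Cre+ mice was 4.81 ± 1.69 CPM after MPTP and 4.69 ± 0.765 after saline.

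Related proteases and regulators were read from lists of 59 genes, of which 51 were tested. Of all genes tested, edgeR called 2.23% higher and 0.956% lower in Cre- MPTP against Cre- Saline. In Cre+ MPTP against Cre- MPTP it called 0.517% higher and 1.03% lower. The counts below are to be read beside these shares. Among 18 tested ADAM and ADAMTS proteases, 2 rose in Cre- MPTP mice and none fell. Adamts1, a proteoglycanase, read 105, 119.5 and 71.2 CPM against 16.2, 29.95 and 30.9 CPM in Cre- Saline (log2 fold change 1.94, SE 0.365, adjusted p = 0.0103), and Adamts9, another proteoglycanase, 21.6, 42.1 and 44.3 CPM against 4.96, 6.83 and 6.72 CPM (2.55, SE 0.369, adjusted p = 0.00257). In Cre+ MPTP against Cre- MPTP mice, which reuses the Cre- MPTP libraries, 2 genes of the list were lower and none higher, Adamts1 by -1.67 (SE 0.330, adjusted p = 0.0289) and Adamts9 by -1.63 (SE 0.325, adjusted p = 0.0307). Without Cre- Saline replicate 1, Adamts1 was still higher by 1.70 but missed the threshold (adjusted p = 0.0564). Without Cre+ MPTP replicate 1, 3 or 4 neither genotype difference passed, although its size stayed close (-1.53, -1.57 and -1.53 for Adamts1 and -1.61, -1.41 and -1.59 for Adamts9), and that of Adamts9 also missed without Cre- MPTP replicate 3 (-1.44, adjusted p = 0.0522).

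Of 12 activators and other regulators, 2 rose and 1 fell in Cre- MPTP mice. A2m, the plasma protease trap alpha-2-macroglobulin, read 81.4, 109 and 90.5 CPM against 11.6, 12.9 and 10.6 CPM (log2 fold change 3.00, SE 0.342, adjusted p = 0.000850). Lcn2, whose lipocalin can bind Mmp9, read 630.1, 460.4 and 595 CPM against 0.159, 0.898 and 0.986 CPM (9.67, SE 1.09, adjusted p = 0.000850). Plau, the urokinase that makes plasmin, fell from 2.98, 1.95 and 1.68 CPM to 0.867, 0.713 and 0.792 CPM (-1.49, SE 0.334, adjusted p = 0.0296), a call that needed Cre- MPTP replicates 2 and 3 and Cre- Saline replicates 1 and 2 (adjusted p without each 0.0741, 0.0790, 0.123 and 0.0760). The membrane inhibitor Reck differed by -0.81 (SE 0.211, adjusted p = 0.0627).

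Between the genotypes after MPTP, A2m was lower in Cre+ mice by -1.86 (SE 0.297, adjusted p = 0.0122) and Lcn2 by -3.39 (SE 0.711, adjusted p = 0.0377). Lcn2 read 25.8, 153, 15.4 and 20.3 CPM in Cre+ MPTP mice, and replicate 2 was highest, as it was for Mmp3 and Timp1. Leaving out Cre+ MPTP replicate 1 or 3 removed the A2m call (adjusted p 0.0575 and 0.0543), and leaving out replicate 1, 3 or 4 removed that of Lcn2 (0.127, 0.0986 and 0.0960). The log2 differences were then -1.79 and -1.76 for A2m and -3.16, -3.08 and -3.12 for Lcn2.

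**Figure D5:**
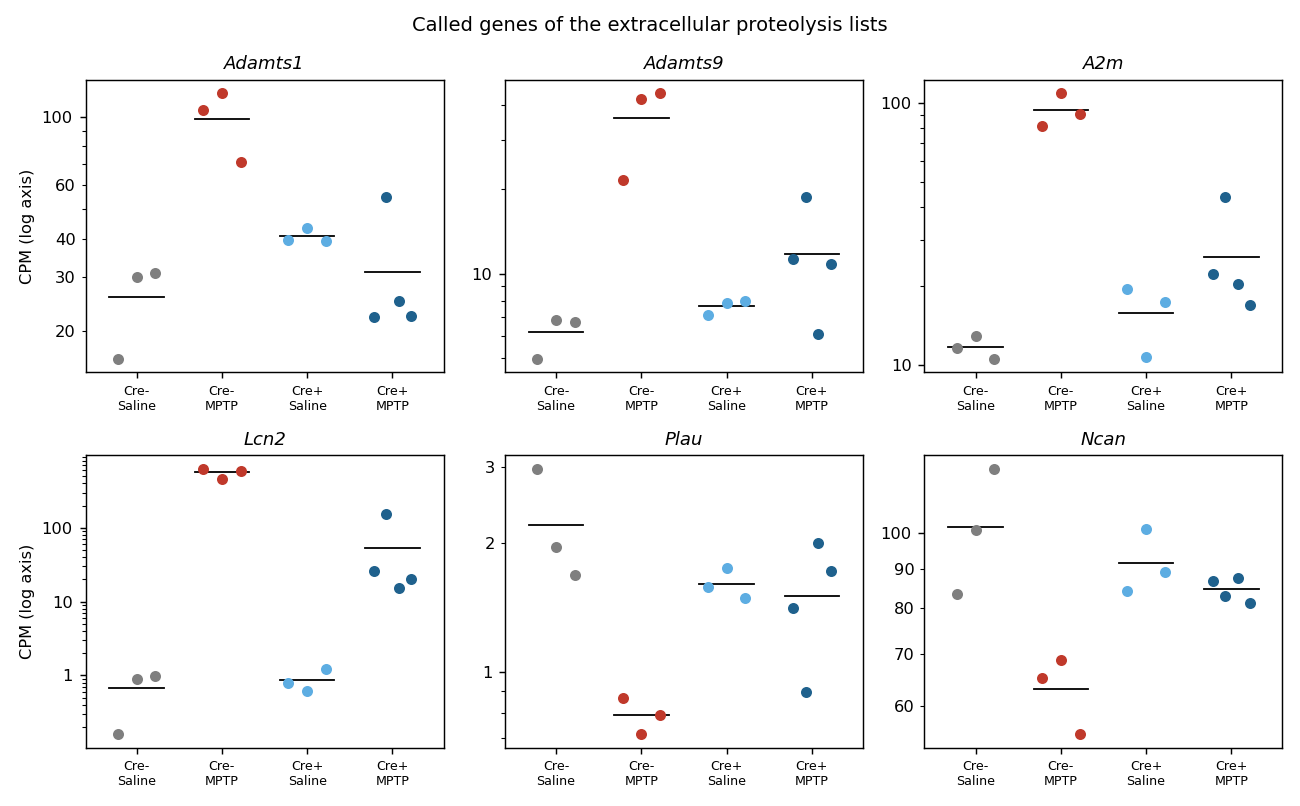
CPM of the 6 called genes of the protease, regulator and matrix lists in each library, log axes, points for animals and bars for group means. Adamts1, Adamts9, A2m and Lcn2 are highest in the 3 Cre- MPTP libraries, Plau and Ncan are lowest there, and Cre+ MPTP replicate 2 has the highest value of its group for the first 4.

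Of 11 brain matrix proteins that metalloproteinases and ADAMTS enzymes cut, 1 fell in Cre- MPTP mice. Ncan, the proteoglycan neurocan, read 65.1, 68.8 and 55.1 CPM against 83.4, 101 and 121 CPM (-0.69, SE 0.150, adjusted p = 0.0244), a call that needed Cre- MPTP replicate 3 and Cre- Saline replicates 2 and 3 (adjusted p without each 0.0791, 0.0855 and 0.103). Of 7 AP-1 subunit genes, edgeR called 0, with 3 at an unadjusted p under 0.05, against 2897 of all 19360 genes. DESeq2 called Junb higher, as 3.91% of all genes were, and limma called Jund lower, as 6.46% were. Junb read 304, 52.8 and 31.9 CPM in Cre- MPTP mice and 20.8, 26.9 and 30.6 CPM in Cre- Saline mice, and the library of Cre- MPTP replicate 1 was the highest (log2 difference 2.31, SE 0.633, adjusted p = 0.0823). Without that library the difference of Junb was 0.70 (adjusted p = 0.0760), and that of Jund went from 1.70 (adjusted p = 0.337) to -0.81 (adjusted p = 0.00558).

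The genes nearest in pattern to each member were found by the mean absolute difference of centred log2 CPM over the 13 libraries. For Mmp3 they were Csf3, Cxcl1 and Ccl5, a growth factor and 2 chemokines (differences 0.61 to 0.69), and for Timp1 Msr1, Serpina3n and Ccl7 (0.40 to 0.46). Those of Mmp12 were C3, Selp and Cdkn1a (0.53 to 0.55), those of Mmp19 Serping1, Znfx1 and Slc39a14 (0.24 to 0.27), and those of Mmp9 Il17ra, Atf5 and Chst2 (0.19 to 0.20). Mmp14 was nearest to Set, Klhdc2 and Zfand5 (0.12) and Timp4 to Ctsz, Zbtb7b and Ptpn1 (0.10 to 0.12). Near neighbours at small distances were found for the other inhibitors, Timp2 with Adgra1, Lhfpl4 and Ampd2 (0.04) and Timp3 with Slc41a1, Rgs6 and 2310015A10Rik (0.06 to 0.08). All these patterns share the same libraries and depths.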

How the data were processed

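The authors prepared libraries from total midbrain RNA with a stranded kit and sequenced read pairs of 150 bases. Per the labels and the paper's methods Trimmomatic 0.36 was used for trimming, STAR 2.5.2b for mapping to GRCm38, and they counted reads per gene with featureCounts (Subread 1.5.2). These raw integer counts were deposited, and the strand setting of the counting is not given in the sources used here. Totals of 11489150 to 29397278 counts per library limit the precision for genes with few counts. Gene symbols came from GENCODE M21, which named 49056 of the 49315 genes, and promoters from RefSeq.

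Counts were tested in R 4.3.3 with edgeR 4.0.16: TMM scaling, at least 10 counts in at least 3 libraries, 1 term per group over 13 libraries, the quasi-likelihood test (two-sided), and Benjamini-Hochberg adjustment over all 19360 genes in each of 5 comparisons, called under 0.05. The SE is the log2 fold change divided by the square root of F. Count ratios use exact 95% intervals, and folds against 0 counts a floor of 3 counts per library. Alternatives were DESeq2 1.42.0, DESeq2 size factors, other count filters, edgeR on 2 groups, limma 3.58.1 voom with sample quality weights, a replicate block, 2 libraries left out together, and each library left out. Mean absolute differences of centred log2 CPM (prior count 2) ranked like patterns.

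Groups came from the genotype and treatment labels. The genes named are the 10 members, the called genes with the smallest adjusted p of each list (at most 4 per list and comparison), overlapping genes, the 3 nearest patterns and markers. Other genes in the chromosome 9 cluster, Mmp2, Mmp13, Mmp15, Mmp17, Mmp24, Adam15, Tnr, Reck, Junb and Jund were named after their values were seen. The members and lists were chosen with earlier results of these data known. On simulated data for the Cre- MPTP against Cre- Saline comparison over 19047 genes, edgeR made 9 false calls and recovered 59 of 66 genes with an 8-fold change, 44 of 67 with a 4-fold change and 12 of 67 with a 2-fold change. On the same data DESeq2 made 41 false calls and recovered 61, 54 and 29 of these genes. For limma there were 9 false calls, with 58, 45 and 13 recovered. Calls made by DESeq2 alone are to be read with its larger number of false calls. Within each group no library was a copy of another, and pairs across groups were not compared. The authors' DESeq2 results were not used here.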

Additional observations from a re-analysis of the deposited data

Results flagged for a closer look

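In Cre+ MPTP mice, replicate 2 stood apart for 2 of the 10 genes, its gap to the next library being larger than Dixon's 95% critical value for 4 samples. Mmp3 was 8.78 CPM there and 0.0444 to 0.420 CPM in the other 3 libraries (gap 0.957 of the range). Timp1 was 10.1 CPM there and 1.88 to 2.22 CPM in the others (0.959). Chance flags about 1 in 20 such groups, and the 2 flags come from the same animal.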

How the results depend on the processing

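The log2 fold changes of the 10 genes in 5 comparisons were recomputed under 8 alternatives, giving 374 values, of which 333 kept their direction and side of the threshold, 17 gained a call, 7 lost one and 17 changed sign. With 1 library left out, these numbers were 337, 8, 21 and 24 of 390. Changes of sign were all in differences that were not called. The cause of the changes was not tested.

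Of the 10 genes, 5 were called in Cre- MPTP against Cre- Saline. This became 7 with DESeq2 and with limma, 4 with the replicate block, 3 with a minimum of 30 in place of 10 counts, a filter that Mmp8 and Mmp12 did not pass, 3 with edgeR on the 2 groups alone, and 1 to 7 with 1 library left out. The share of all genes called higher went from 2.23% to 3.91%, 7.09%, 1.53%, 2.57% and 0.573% in the same order. In Cre+ MPTP against Cre- MPTP, 2 were called, which became 4 with DESeq2, 1 with the stricter filter, 0 with edgeR fitted to 2 groups, 6 by limma voom (sample quality weights), 0 with the replicate block, and 0 to 4 with 1 library left out. Of all genes, the share called lower went from 1.03% to 2.92%, 1.22%, 0%, 3.8% and 0%. For the interaction, 0 became 2 with DESeq2, 3 with limma and 0 to 1 with 1 library left out. In both other comparisons 0 of the 10 were called under every alternative run.

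Of the 51 related genes, 6 were called in Cre- MPTP against Cre- Saline, which became 10 with DESeq2, 3 with edgeR on the 2 groups, 19 with limma, 17 without Cre- MPTP replicate 1 and Cre+ MPTP replicate 4, and 4 to 15 with 1 library left out (15 without Cre- MPTP replicate 1). The share of all genes called went from 3.18% to 5.87%, 0.6%, 13.6% and 10% in the same order, and to 9.38% without Cre- MPTP replicate 1. In Cre+ MPTP against Cre- MPTP, 4 became 7 with DESeq2, 0 on the 2 groups, 14 with limma, 0 with the block, 7 without those 2 libraries and 0 to 9 with 1 left out. Of all genes, 1.54% became 4.31%, 0%, 6.32%, 0% and 2.91%. In Cre+ MPTP against Cre+ Saline, 0 became 1 with DESeq2, with no filter, with limma and without those 2 libraries, and 0 to 1 with 1 left out. The share of all genes there went from 0% to 0.429%, 0.0252%, 1.52% and 0.198%. For the interaction, 0 became 4 with DESeq2, 9 with limma, 4 without those 2 libraries and 0 to 4 with 1 left out. Its share of all genes went from 0.0103% to 1.15%, 3.56% and 1.15%.

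Under limma the sign changed for Mmp14 (-0.14) and Timp2 (-0.047) in Cre- MPTP against Cre- Saline, Mmp8 (0.17) in Cre+ MPTP against Cre+ Saline, Timp2 (0.019) and Timp3 (-0.017) in Cre+ MPTP against Cre- MPTP, Mmp14 (-0.086) and Timp4 (0.057) in Cre+ Saline against Cre- Saline, and Timp2 (0.047) in the interaction. Without Cre- MPTP replicate 1 and Cre+ MPTP replicate 4 it changed for Timp2 (-0.018) and Timp3 (0.052) in the first comparison, Mmp8 (0.088) and Timp2 (0.011) in the second, Timp2 (0.014) and Timp3 (-0.027) in the third, and Timp2 (0.028) in the interaction.

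With 1 library left out, the log2 differences that changed sign spanned -0.028 to 0.080 for Timp2 and -0.22 to 0.12 for Timp3 in Cre- MPTP against Cre- Saline. In Cre+ MPTP against Cre+ Saline they spanned -1.61 to 4.49 for Mmp8, -0.26 to 0.43 for Mmp19 and -0.084 to 0.0018 for Timp2. In Cre+ Saline against Cre- Saline they spanned -3.05 to 2.44 for Mmp8, -0.037 to 0.16 for Mmp14, -0.20 to 0.48 for Mmp19, -0.064 to 0.037 for Timp2 and -0.091 to 0.025 for Timp4. In the interaction they spanned -5.27 to 0.72 for Mmp3, -0.1141 to 4e-04 for Timp2 and -0.31 to 0.032 for Timp3. For Timp2 and Timp3 in Cre+ MPTP against Cre- MPTP, which kept their sign with 1 library left out and lost it without the 2 libraries, the values over all these fits spanned -0.12 to 0.014 and -0.027 to 0.15.

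The replicate numbers are shared by the groups, but the same-numbered samples did not deviate together: 18 pairs had correlations of -0.18 to 0.18, and 3 were over 0.1, so the numbers were not taken as pairs. With the replicate number as a block, 0 of all 19360 genes, the 10 among them, were called in Cre+ MPTP against Cre- MPTP (7 of the 10 and 1712 of all genes had an unadjusted p under 0.05), Mmp9 lost its call in Cre- MPTP against Cre- Saline (1.43, adjusted p = 0.123), and in Cre+ MPTP against Cre+ Saline Mmp8 was 0.63 and Timp2 0.0029. Replicate 4 exists in Cre+ MPTP alone, so under the block it adds nothing to a comparison. The interaction has no fit on 2 groups alone. Mmp8 and Mmp12, with few counts, are limited by depth.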
